A study of Mus musculus with 6 samples.

Results

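The aquaporins of mouse skin were examined in bulk RNA-seq of full-thickness dorsal skin. The genes are Aqp1, Aqp3, Aqp4, Aqp5, Aqp7, Aqp9 and Aqp11, taken by symbol from the deposited expression table. They are 7 of the 21959 genes in that table, which also lists 5 other genes of the family (Mip, Aqp2, Aqp6, Aqp8 and Aqp12). The skin came from 7-week-old male C57BL/6 mice whose dorsal hair had been shaved in telogen, the resting phase of the hair cycle. Each group had 3 mice, which received either the vehicle (dipropylene glycol in water) or 3% rebamipide on the back, daily over 7 days. Rebamipide is a gastroprotective drug, and the comparison asks which skin transcripts differ after a week of topical treatment, before new hair growth. Each library is 1 mouse, and all cells of the skin sample, including fat and the thin muscle sheet under the skin, contribute to it.

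Aquaporins are membrane channels that let water cross a lipid bilayer along an osmotic gradient. The classical members pass water alone, whereas the aquaglyceroporins, among them Aqp3, Aqp7 and Aqp9, also pass glycerol and other small solutes. In skin each member is known from a different compartment. Aqp1 belongs to endothelium and red cells, Aqp3 to keratinocytes, Aqp4 to the sarcolemma of fast muscle fibres, Aqp5 to sweat gland cells, Aqp7 to adipocytes and capillary endothelium, and Aqp9 to leukocytes and some epithelia. Aqp11 is an intracellular member with expression in many tissues.

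Vehicle libraries held 38676018 to 39915276 counts, and those of rebamipide 32709801 to 34706852. Mitochondrial transcripts took 2.59% to 5.36% of the counts with vehicle and 13.3% to 22% with rebamipide. The third rebamipide library stood apart from the other two: Krt14 had 0 counts in it and Krt5 had 4, although these keratins define the basal epidermis and were at 5368 to 77535 counts in the other 5 libraries. The summed normalized CPM (counts scaled to library size) of 8 suprabasal keratinocyte genes were 5.61 in that library, against 1117 to 6596 in the others. The label of skin is therefore not borne out by epidermal markers in that library, and most results that rest on it are given with and without it. The brown fat gene Ucp1 had 0 counts in all 3 vehicle libraries, while rebamipide libraries held 81048 to 220449. Whether tissue was taken alike in both groups was not tested, and the treatment and the make-up of the tissue samples cannot be told apart here.

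The promoter sequences of Aqp7, Aqp3 and Aqp1 are shown because these genes made up nearly all of the aquaporin mRNA, and because Aqp7 and Aqp3 are neighbours on chromosome 4 whose levels moved apart. Each is the 250 bases before a RefSeq start on build GRCm38.p6, written 5′ to 3′ along the gene. Capitals mark matches to 3 motifs on either strand: the nuclear receptor half-site AGGTCA (reverse TGACCT), the TATA box TATAAA and the GC box GGGCGG (reverse CCGCCC). The Aqp7 window (chr4:41048137-41048386, minus strand) is that of the more upstream of 2 starts, the Aqp3 window is chr4:41098184-41098433 (minus strand) and the Aqp1 window is chr6:55336049-55336298 (plus strand).
Aqp7: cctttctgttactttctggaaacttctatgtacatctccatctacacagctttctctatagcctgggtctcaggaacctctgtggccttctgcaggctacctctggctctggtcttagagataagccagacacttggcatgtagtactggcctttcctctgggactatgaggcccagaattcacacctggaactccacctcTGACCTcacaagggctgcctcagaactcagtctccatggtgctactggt
Aqp3: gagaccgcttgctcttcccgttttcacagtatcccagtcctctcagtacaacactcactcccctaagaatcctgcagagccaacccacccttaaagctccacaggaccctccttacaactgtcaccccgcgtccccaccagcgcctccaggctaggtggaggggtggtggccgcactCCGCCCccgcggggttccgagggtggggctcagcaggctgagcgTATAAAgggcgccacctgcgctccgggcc
Aqp1: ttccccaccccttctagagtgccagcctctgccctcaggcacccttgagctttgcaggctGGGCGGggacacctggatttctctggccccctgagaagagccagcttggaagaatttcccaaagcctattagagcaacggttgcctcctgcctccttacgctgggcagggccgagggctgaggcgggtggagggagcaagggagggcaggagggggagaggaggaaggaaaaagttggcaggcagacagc
In the Aqp7 window the half-site began 49 bases before the start, and neither a TATA box nor a GC box was found. In the Aqp3 window a TATA box began 29 bases and a GC box 73 bases before the start. The Aqp1 window held a GC box 190 bases before the start and no TATA box. Of 32851 RefSeq windows of the same length, 14% held the half-site, 12.4% the TATA box and 32.7% the GC box. A direct repeat of the half-site with a single base between its copies was in 0.0335% of all windows and in none of the 8 windows of 6 members that the reference listed. The G and C content was 50.8% for Aqp7, 64% for Aqp3 and 62% for Aqp1, beside a median of 52.4% over all windows. These matches describe letters, not binding.

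The levels of the members were compared with one another per gene length, as the deposited FPKM (counts scaled to gene length and library total). In vehicle skin Aqp1 and Aqp3 led. Aqp1 was at 66.5, 98.7 and 173 FPKM and Aqp3 at 82.9, 42.3 and 71.5 FPKM in replicates 1 to 3, and their ranges overlapped, with Aqp1 above Aqp3 in 2 of 3 libraries. Aqp7 (3.77 to 7.83 FPKM), Aqp4 (0.813 to 7.23) and Aqp9 (2.18 to 5.98) followed, with overlapping ranges, and all 3 lay below the lowest Aqp3 value. Aqp5 (0.0984 to 0.405 FPKM) and Aqp11 (0.192 to 0.217) were lowest and overlapped each other.

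In rebamipide skin the order changed. Aqp1 was at 213, 179 and 253 FPKM and Aqp7 came second at 64.2, 106 and 126 FPKM, with no overlap between them. Aqp3 was at 20.3, 8.91 and 0.0315 FPKM, below every Aqp7 value. Aqp4 (0.037 to 2.01 FPKM), Aqp9 (0.0278 to 1.56) and Aqp11 (0.343 to 0.505) overlapped Aqp3 and one another, so that the ranges of neighbours among these 4 genes were not separate. In the first and second rebamipide libraries Aqp3 was above the other 3, and in the third it was below Aqp4 and Aqp11. Aqp4 was above Aqp9 in each of the 3 rebamipide libraries. Aqp5 was lowest (0 to 0.0224 FPKM).

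As shares of the summed FPKM of the 12 family genes, Aqp1, Aqp3 and Aqp7 together held 93% to 97.8% in vehicle skin and 98.7% to 99.8% in rebamipide skin. The Aqp3 share was 52.9%, 26.8% and 26.9% with vehicle and 6.73%, 3.01% and 0.0083% with rebamipide. The Aqp7 share was 2.41%, 3.69% and 2.94% with vehicle and 21.3%, 35.9% and 33.3% with rebamipide. For both genes the groups did not overlap (two-sided exact permutation p = 0.1, the lowest p that 3 libraries against 3 can reach). Aqp1 held 42.5%, 62.5% and 65% with vehicle and 60.5% to 70.7% with rebamipide, and its groups overlapped (exact permutation p = 0.4). It was the leading gene in 5 of 6 libraries, and in the first vehicle library Aqp3 led. Shares within a library do not depend on scaling between libraries. Without the third rebamipide library the mean Aqp3 share differed by -30.7 percentage points and the mean Aqp7 share by 25.6.

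**Figure D1:**
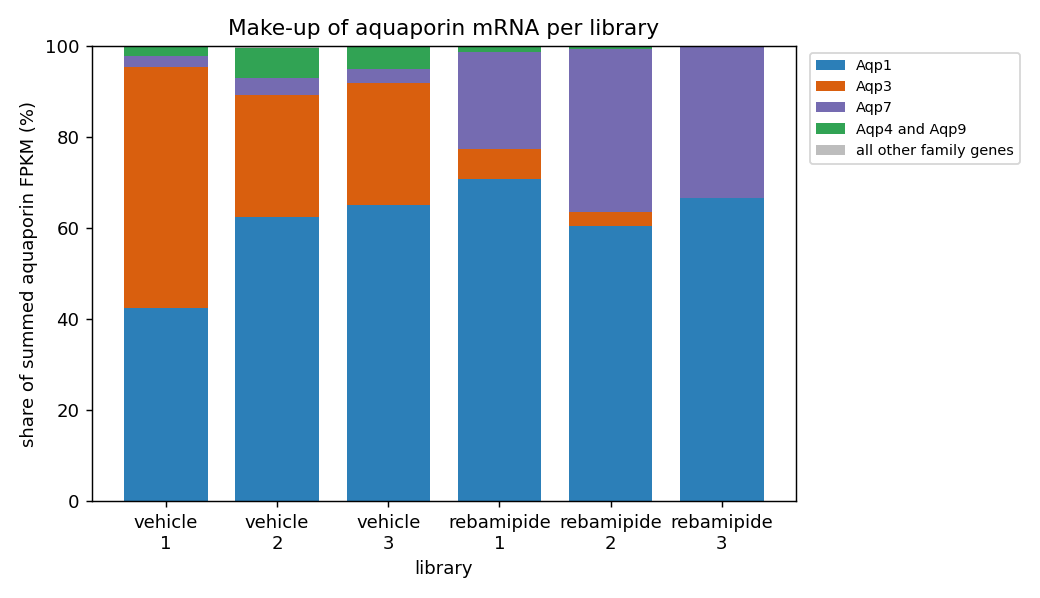
Stacked bars give the percent of summed aquaporin FPKM held by each gene in each of the 6 libraries. Aqp3 takes 26.8% to 52.9% of the bar in vehicle libraries and at most 6.73% in rebamipide libraries, while Aqp7 goes from at most 3.69% to at least 21.3%.

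For the comparison between groups, counts were scaled with TMM factors and tested with edgeR's quasi-likelihood test over the 14875 genes that passed its expression filter. The adjusted p-values are Benjamini-Hochberg values over all of these genes. Of the 7 members, 6 passed the filter and Aqp5 did not. Of the 6 tested, Aqp1, Aqp7 and Aqp11 rose at an adjusted p-value under 0.05 and 0 fell. Of those tested with lower values, 0 had an unadjusted p under 0.05. Over all genes tested, 14.1% were called higher and 6.51% lower. DESeq2 called the same 3 members higher and 0 lower, beside 18.3% higher and 17% lower over all genes. The study put its thresholds on DESeq2 results (unadjusted p-value under 0.05 and a fold change above 2 in either direction, a log2 value of 1). Put on the edgeR fit, these thresholds again gave the same 3 higher and 0 lower, beside 14.3% and 14.5% of all genes. They were not put on the DESeq2 fit here. In edgeR fits without vehicle replicate 2 and without rebamipide replicate 2, 0 and 1 of all genes passed the adjusted threshold, and every edgeR call of a member, a list gene or a neighbour given below was lost in both. Without the third rebamipide library edgeR called 1 member higher, Aqp7, and 0 lower, beside 1012 and 382 of 15327 genes.

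In normalized CPM, 3 members (Aqp1, Aqp7 and Aqp11) were above every vehicle library in all 3 rebamipide libraries, which held for 24.5% of the genes tested. The members Aqp3, Aqp5 and Aqp9 were below every vehicle library in all 3 rebamipide libraries, and 24% of the genes tested were so. Aqp4 overlapped. The share of separated groups was thus high over the whole transcriptome. In bulk skin, fewer cells of a type and less mRNA per cell cannot be told apart. The median log2 fold change of the 6 tested members was -0.13, beside -0.17 over all genes tested. Without the third rebamipide library, where Aqp5 also passed the filter, the median of the members was -1.25, beside -0.14 over all genes.

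**Figure D2:**
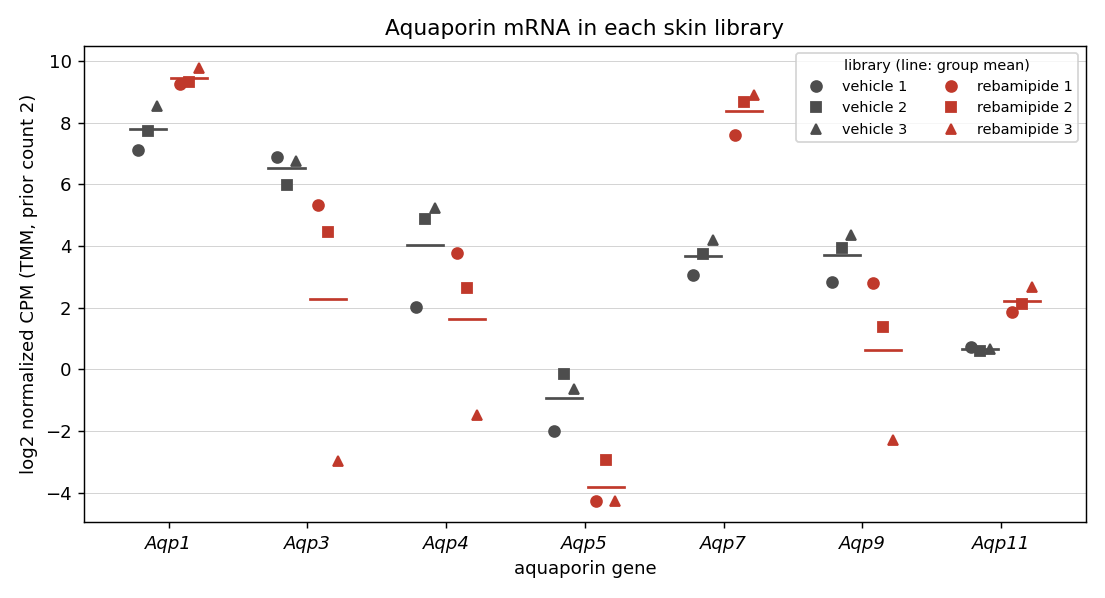
Points are the log2 normalized CPM of each aquaporin in the 3 vehicle (grey) and 3 rebamipide (red) libraries, with a line at each group mean. Aqp1, Aqp7 and Aqp11 lie higher in every rebamipide library, Aqp3, Aqp5 and Aqp9 lie lower, and the third rebamipide library is lowest for Aqp3, Aqp4 and Aqp9.

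Aqp1, the water channel of endothelium and red cells (ENSMUSG00000004655, chromosome 6, 55313417 to 55325540, plus strand, GRCm39), rose with rebamipide. Its normalized CPM were 137, 210 and 376 with vehicle and 604, 630 and 879 with rebamipide. Every rebamipide library was above the highest vehicle library, which was the third. The fold change was 2.92 (log2 1.55 ± 0.42 SE, edgeR adjusted p = 0.0488), and DESeq2 gave a log2 value of 1.54 with an adjusted p of 0.00596. The edgeR call stands at the edge of the threshold. It was lost with RLE scaling (adjusted p = 0.0536) and with total counts alone (log2 0.93, adjusted p = 0.104), and it was kept in 1 of 6 edgeR fits that left out a library, the one without vehicle replicate 3. In the other 5 fits the edgeR adjusted p was 0.0911 without vehicle replicate 1, 0.176 without vehicle replicate 2, and 0.0559, 0.137 and 0.115 without rebamipide replicates 1, 2 and 3. In DESeq2 the call was lost in 1 of 6 such fits, the one without vehicle replicate 2 (adjusted p = 0.0543).

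The endothelial marker genes moved with Aqp1. Of 8 endothelial genes, 4 rose and 0 fell at an adjusted p under 0.05 in edgeR, and without the third rebamipide library 3 rose, while 7 rose without vehicle replicate 3 and in DESeq2. Their median log2 fold change was 1.59. Kdr, the main VEGF receptor of endothelium, rose from 33.9, 45.4 and 63.9 CPM to 249, 365 and 434 CPM (log2 2.87 ± 0.35, edgeR adjusted p = 0.00979). Cdh5, the cadherin of endothelial junctions, rose by a log2 value of 2.22 ± 0.36, and Tie1, an endothelial receptor kinase, by 2.22 ± 0.31. Vwf, the von Willebrand factor gene, overlapped between groups (log2 -0.19 ± 0.53). The summed level of the 8 genes was 258 to 620 CPM with vehicle and 1187 to 1646 CPM with rebamipide.

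Within each library Aqp1 kept a nearly fixed distance from the endothelial genes. The log2 CPM of Aqp1 minus the mean log2 CPM of the 8 genes was 2.48, 2.48 and 2.63 with vehicle and 2.46, 2.41 and 2.71 with rebamipide. The groups overlapped (difference -0.01, two-sided exact permutation p = 0.8), and over the 6 libraries this distance spanned 0.30 whereas Aqp1 itself spanned 2.68 on the log2 scale. The 5 red cell genes, among them the globin genes Hba-a1 and Hbb-bs and the haem synthesis gene Alas2, also had higher values in all rebamipide libraries. Of these 5 genes 3 rose at an adjusted p under 0.05 in edgeR, 0 did so without the third rebamipide library or without vehicle replicate 1, and 5 did so without vehicle replicate 3 and in DESeq2. Their summed level was 42.4 to 200 CPM with vehicle and 345 to 809 CPM with rebamipide. Aqp1 minus the red cell mean was 5.38, 4.76 and 4.43 with vehicle and 4.32, 3.44 and 3.83 with rebamipide, lower in every rebamipide library (difference -0.99, exact permutation p = 0.1). The part of either cell type in the Aqp1 result was not tested.

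The genes whose pattern was most like that of Aqp1 were Hrct1, Gstz1 and Tns2. Likeness was the root mean square difference of centred log2 CPM over the 6 libraries, among 13378 tested genes with a mean of at least 50 counts, and it was 0.0912, 0.11 and 0.114 log2 units. Gstz1, an enzyme of tyrosine breakdown, was at 70.3, 132 and 216 CPM with vehicle and 352, 359 and 444 CPM with rebamipide, the same order of libraries as Aqp1.

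Aqp7, the glycerol channel through which adipocytes release the glycerol set free by lipolysis (ENSMUSG00000028427, chromosome 4, 41033074 to 41048139, minus strand, GRCm39), had the largest rise of the members. It had 417, 658 and 856 counts with vehicle and 5943, 10320 and 12403 counts with rebamipide, or 8.35, 13.4 and 18.3 and then 196, 402 and 473 normalized CPM. The lowest rebamipide library lay far above the highest vehicle library. The fold change was 26.8 (log2 4.74 ± 0.50 SE, edgeR adjusted p = 0.00939). The rise was a log2 value of 4.49 without the third rebamipide library (edgeR adjusted p = 0.0206). The edgeR call was lost without vehicle replicate 2 (log2 4.69, adjusted p = 0.0747) and without rebamipide replicate 2 (log2 4.65, adjusted p = 0.0573), while DESeq2 kept it in all 6 fits that left out a library.

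Fat genes moved with Aqp7. Of 12 adipocyte genes 8 rose and 0 fell at an adjusted p under 0.05 in edgeR (5 rose without the third rebamipide library), DESeq2 also called 8 higher and 0 lower, and the median log2 fold change was 2.37. Fabp4, the fatty acid binding protein of adipocytes, was at 611, 852 and 1136 CPM with vehicle and 5055, 9815 and 10959 CPM with rebamipide. Adipoq, which encodes adiponectin, rose by a log2 value of 2.05 ± 0.47 (edgeR adjusted p = 0.0308, 0.0713 without the third rebamipide library and 0.0633 without vehicle replicate 1), whereas the leptin gene Lep overlapped between groups (log2 -0.53 ± 0.54). The summed level of the 12 genes was 2606 to 8750 CPM with vehicle and 19955 to 37235 CPM with rebamipide.

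Of 8 brown adipocyte genes 6 rose and 0 fell in edgeR (5 rose without the third rebamipide library), and DESeq2 called 7 higher and 1 lower. Ucp1, the uncoupling protein of brown fat, was at 0 CPM in each vehicle library and at 2669, 8591 and 5746 CPM with rebamipide. Otop1 was at 0.12, 0.528 and 0.342 CPM with vehicle and at 191, 402 and 421 CPM with rebamipide. Cidea, a lipid droplet protein, was at 15.6 to 58.3 CPM with vehicle and 1552 to 3543 CPM with rebamipide. The fatty acid elongase gene Elovl3 lay lower in every rebamipide library with a log2 value of -1.45 ± 0.42 (edgeR adjusted p = 0.0575), and it was the gene that DESeq2 called lower. The summed level of the 8 genes was 214 to 384 CPM with vehicle and 5040 to 12960 CPM with rebamipide.

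Aqp7 was set against the mean of each list in the same library. Aqp7 minus the adipocyte mean was -3.88, -4.11 and -4.37 with vehicle and -2.30, -1.39 and -1.43 with rebamipide on the log2 scale. The value was higher in every rebamipide library than in any vehicle library, on average by 2.41 (exact permutation p = 0.1), or by 2.27 without the third rebamipide library. Against the brown adipocyte list the direction turned on Ucp1, whose log2 level at 0 counts in the vehicle libraries is set by the prior count. With all 8 genes, as planned, the value was 1.27, 1.08 and 1.06 with vehicle and 0.22, -0.05 and 0.49 with rebamipide. It was lower in every rebamipide library (difference -0.92, exact permutation p = 0.1, or -1.05 without the third rebamipide library). Without Ucp1, a choice made after seeing the data, Aqp7 minus the mean of the other 7 genes was 0.41, 0.10 and 0.00 with vehicle and 0.79, 0.57 and 1.07 with rebamipide. That is higher in every rebamipide library, on average by 0.64 (exact permutation p = 0.1), or by 0.51 without the third rebamipide library. The part of brown or white adipocytes in the rise of Aqp7 was not tested.

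Aqp7 works beside enzymes that make, phosphorylate and esterify glycerol, and these were described as a list of 14 genes of glycerol handling. Of the 14, 12 rose and 0 fell at an adjusted p under 0.05 in edgeR, with a median log2 fold change of 2.93, and 10 rose without the third rebamipide library. DESeq2 called 14 higher. All 14 had higher CPM in every rebamipide library than in any vehicle library. Of these genes Lipe, Pck1, Plin1 and Pnpla2 also stand among the 12 adipocyte genes.

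Gpd1, the cytosolic glycerol-3-phosphate dehydrogenase, was at 100, 202 and 281 CPM with vehicle and 2906, 4671 and 4474 CPM with rebamipide (log2 4.37 ± 0.52, edgeR adjusted p = 0.00953). Pck1, which opens glyceroneogenesis, was at 56.7, 67.6 and 173 CPM with vehicle and 3374, 6379 and 8053 CPM with rebamipide (log2 5.90 ± 0.71, edgeR adjusted p = 0.00953). Lipe, the hormone-sensitive lipase, rose by a log2 value of 3.05 ± 0.37. In all of these genes each rebamipide library lay above every vehicle library. Gk, the glycerol kinase that traps glycerol in the cell, had the widest error of the list. It was at 10.1, 15.6 and 23.8 CPM with vehicle and 44.7, 539 and 297 CPM with rebamipide (log2 4.15 ± 0.93, edgeR adjusted p = 0.0294). The first rebamipide library was far below the other two for Gk. In edgeR its call was kept only without rebamipide replicate 1 among the 6 fits that left out a library, and without the third rebamipide library the adjusted p was 0.0527. Lpl, the lipoprotein lipase, and Mgll, the monoglyceride lipase, did not pass the test (edgeR adjusted p = 0.0598 and 0.0548). Lpl had a log2 fold change of 2.02 ± 0.60, and Mgll was at 245 to 667 CPM with vehicle and 930 to 1430 CPM with rebamipide.

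**Figure D3:**
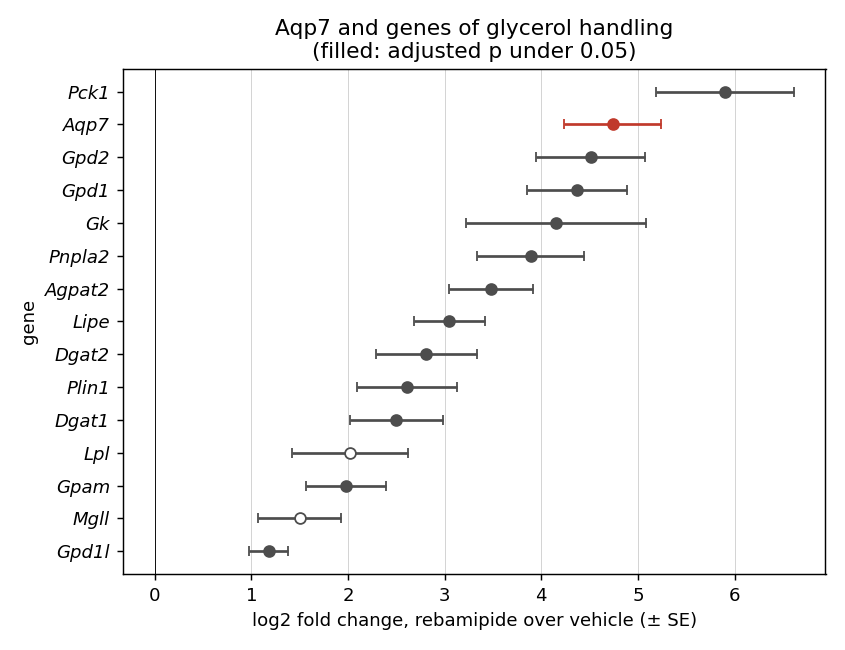
Points are log2 fold changes of rebamipide over vehicle for Aqp7 (red) and the 14 genes of glycerol handling (grey), with bars of 1 SE from edgeR. Filled points passed an adjusted p of 0.05. Values run from 1.18 for Gpd1l to 5.90 for Pck1, and Aqp7 stands second at 4.74.

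Among the genes most like Aqp7 over the 6 libraries were Slc25a42 and Gpd2, with root mean square differences of 0.203 and 0.207 log2 units. Slc25a42 carries coenzyme A into mitochondria, and its CPM were 5.61, 9.93 and 10.2 with vehicle and 113, 276 and 399 with rebamipide. Gpd2, the mitochondrial glycerol-3-phosphate dehydrogenase and a member of the glycerol list, was at 27.7, 39.7 and 77 CPM with vehicle and 630, 1410 and 1248 CPM with rebamipide. In both genes, as in Aqp7, the first rebamipide library was the lowest of its group.

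Aqp11, an intracellular member of the family (ENSMUSG00000042797, chromosome 7, 97373213 to 97387496, minus strand, GRCm39), was low and rose. It had 80, 72 and 72 counts with vehicle and 108, 111 and 165 counts with rebamipide, or 1.6, 1.46 and 1.54 and then 3.56, 4.33 and 6.3 normalized CPM. The vehicle libraries were nearly alike, and every rebamipide library lay above them. The fold change was 3.07 (log2 1.62 ± 0.35 SE, edgeR adjusted p = 0.0278). DESeq2 gave a log2 value of 1.63 with an adjusted p of 0.000442. The size of this rise depended on the scaling. With total counts alone it was a log2 value of 0.98, and the edgeR adjusted p was 0.0582. With limma on log2(FPKM + 1), a scale that understates changes of low genes, it was 0.22 (adjusted p = 0.0498). The edgeR call was lost in 5 of 6 fits that left out a library, with adjusted p of 0.0589, 0.128 and 0.0595 without vehicle replicates 1, 2 and 3, and 0.105 and 0.0922 without rebamipide replicates 2 and 3. Without rebamipide replicate 1 it was 0.0189. DESeq2 kept the call in all 6 fits that left out a library, with adjusted p of 3.37e-06 to 0.00772. Fitted in edgeR with the replicate number as a block, the adjusted p was 0.0693.

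Aqp11 was also set against the adipocyte genes. Its log2 CPM minus the adipocyte mean was -6.22, -7.26 and -7.90 with vehicle and -8.07, -7.91 and -7.65 with rebamipide, and the groups overlapped (exact permutation p = 0.2). The ratio of Aqp11 to Aqp1 in FPKM overlapped as well, at 0.00114 to 0.00327 with vehicle and 0.00164 to 0.002 with rebamipide. The genes most like Aqp11 were Slc5a6, a vitamin transporter, Nit2, an amidase, and Lman2l, a lectin of the secretory pathway, with root mean square differences of 0.0803 to 0.108 log2 units. Slc5a6 was at 9.12 to 9.49 CPM with vehicle and at 23.6 to 35.2 CPM with rebamipide.

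**Figure D4:**
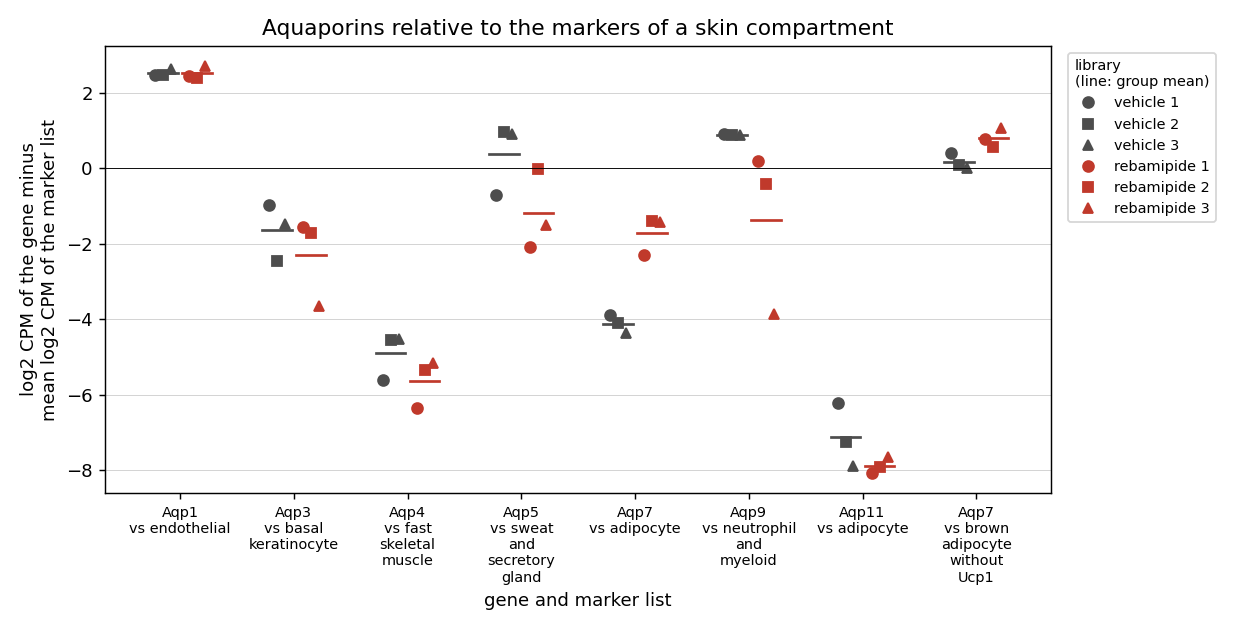
Points are the log2 CPM of an aquaporin minus the mean log2 CPM of a marker list in the same library, vehicle in grey and rebamipide in red, with a line at each group mean. Aqp1 against endothelial genes stays within 2.41 to 2.71 in all 6 libraries, Aqp7 lies higher with rebamipide against the adipocyte list and against 7 brown adipocyte genes (with Ucp1 as the eighth the difference is -0.92), and Aqp9 leaves its flat vehicle level near 0.89 with rebamipide.

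Aqp3, the glycerol and water channel of basal keratinocytes (ENSMUSG00000028435, chromosome 4, 41092722 to 41098183, minus strand, GRCm39), had lower values with rebamipide but did not pass the test. It had 5924, 3089 and 5056 counts with vehicle and 1215, 560 and 2 counts with rebamipide, or 119, 62.7 and 108 and then 40, 21.8 and 0.0763 normalized CPM. No rebamipide library reached the lowest vehicle library, and the third rebamipide library was almost without Aqp3. The log2 fold change was -2.22 ± 1.43 SE (edgeR adjusted p = 0.283, DESeq2 adjusted p = 0.149). Without the third rebamipide library it was -1.63, with an adjusted p of 0.0655 in edgeR and of 0.00488 in DESeq2. Only that last fit and limma on log2(FPKM + 1), with an adjusted p of 0.0484, called Aqp3 lower among the alternatives run. Over all genes these fits called 1865 of 15327 and 4809 of 14875 lower.

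Keratinocyte genes were counted in the same libraries. Of 8 basal keratinocyte genes 0 rose and 0 fell at an adjusted p under 0.05 in edgeR, with unadjusted p under 0.05 for Trp63, Itgb4 and Dst, and DESeq2 called 3 lower. In 7 of the 8 genes every rebamipide library lay below every vehicle library. Without the third rebamipide library edgeR called 1 lower. Trp63, the transcription factor of the basal layer, was at 305, 228 and 196 CPM with vehicle and 55.5, 30.2 and 1.18 CPM with rebamipide. Krt5 was at 1010, 1574 and 1211 CPM with vehicle and 435, 209 and 0.153 CPM with rebamipide. The summed level of the 8 genes was 2644 to 4331 CPM with vehicle and 224 to 1294 CPM with rebamipide. Of 8 suprabasal genes 0 rose and 0 fell in edgeR and DESeq2, 0 had an unadjusted p under 0.05 in edgeR, and 2 fell in edgeR without the third rebamipide library. In 3 of these 8 genes every rebamipide library lay below every vehicle library, and 5 overlapped between groups.

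Aqp3 minus the basal keratinocyte mean was -0.96, -2.46 and -1.47 with vehicle and -1.55, -1.70 and -3.64 with rebamipide on the log2 scale. The first and second rebamipide libraries lay inside the vehicle range, and the groups overlapped (difference -0.67, exact permutation p = 0.5). Without the third rebamipide library the difference was 0.01. Aqp3 minus the suprabasal mean differed by 0.36, and by 0.06 without that library. The part of epidermal content in the Aqp3 values was not tested.

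The genes most like Aqp3 were Cyp4f39, which makes omega-hydroxylated lipids of the skin barrier, the aldehyde oxidase gene Aox4, and Urah, with root mean square differences of 0.28 to 0.297 log2 units. All had 0 CPM in the third rebamipide library. Cyp4f39 was at 55, 46.2 and 67.2 CPM with vehicle and at 21.8, 13 and 0 CPM with rebamipide.

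Aqp7 and Aqp3 lie next to each other on the minus strand of chromosome 4, with 44582 bases and no gene of the table between them. As levels per length, Aqp7 over Aqp3 was 0.0455, 0.138 and 0.109 with vehicle and 3.16, 11.9 and 4011 with rebamipide. The ratio passed from below 1 in every vehicle library to above 1 in every rebamipide library (exact permutation p = 0.1), and its mean log2 change was 9.24, or 6.12 without the third rebamipide library. The last value of the ratio rests on 2 counts of Aqp3.

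Of the other 6 tested genes within 150000 bases on either side, which were chosen by position after the members' values were seen, 1 rose and 0 fell. Bag1, a co-chaperone gene, rose from 104, 123 and 155 CPM to 219, 246 and 281 CPM (log2 0.96 ± 0.23, edgeR adjusted p = 0.0354). Its call was lost without the third rebamipide library (log2 0.88, edgeR adjusted p = 0.11) and without vehicle replicate 1 (0.80, adjusted p = 0.0692), and with total counts alone the log2 value was 0.34 (edgeR adjusted p = 0.199). The others overlapped between groups and had log2 fold changes from -0.58 for Ubap2 to 0.30 for Nol6. The nearest gene on the Aqp7 side, Nfx1, was at -0.28 ± 0.24, and the nearest on the Aqp3 side, Nol6, at 0.30 ± 0.27.

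**Figure D5:**
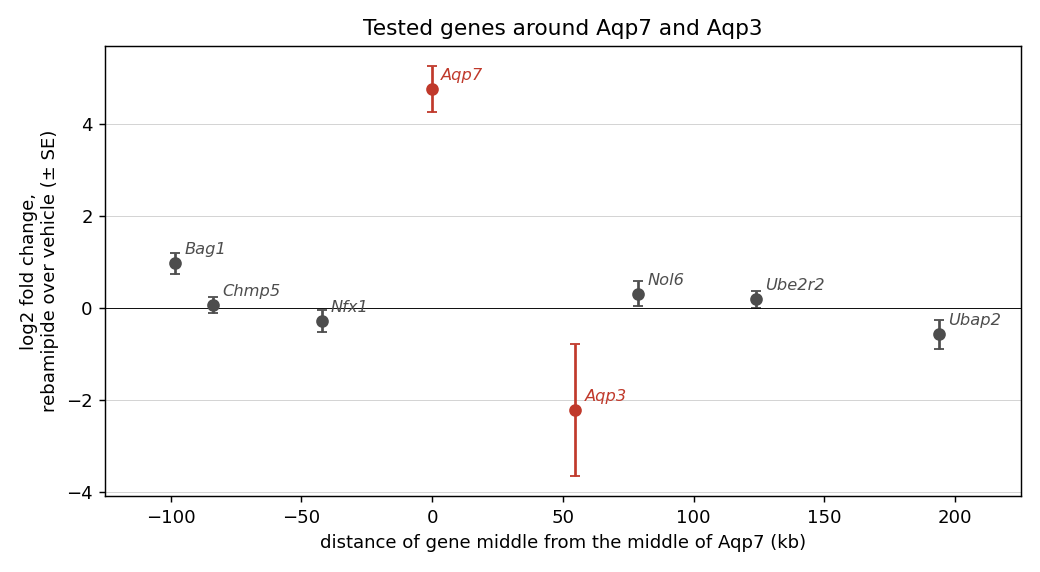
Log2 fold changes of rebamipide over vehicle (± 1 SE, edgeR) are plotted against the distance in kb between the middle of each tested gene and the middle of Aqp7. Aqp7 at 4.74 and Aqp3 at -2.22 stand apart from the 6 neighbours, which lie between -0.58 and 0.96.

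Aqp9, a glycerol and urea channel of leukocytes and some epithelia (ENSMUSG00000032204, chromosome 9, 71017941 to 71075964, minus strand, GRCm39), had lower values with rebamipide and did not pass the test. It had 353, 753 and 958 counts with vehicle and 212, 65 and 4 counts with rebamipide, or 7.07, 15.3 and 20.5 and then 6.98, 2.53 and 0.153 normalized CPM. The highest rebamipide library was just under the lowest vehicle library. The log2 fold change was -2.14 ± 1.12 SE (edgeR adjusted p = 0.202), and -1.58 without the third rebamipide library (adjusted p = 0.165). DESeq2 without rebamipide replicate 1 (log2 -3.44, adjusted p = 0.00429) and limma on log2(FPKM + 1) (adjusted p = 0.0286) called it lower. Over all genes these fits called 4189 of 15345 and 4809 of 14875 lower.

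Aqp9 was set against 10 neutrophil and myeloid genes, of which 0 rose and 1 fell in edgeR (0 fell without any 1 of the 6 libraries), and DESeq2 called 3 lower. The 1 that fell in edgeR was S100a8, a calgranulin of neutrophils, at 2.52 to 4.47 CPM with vehicle and 0.988 to 1.44 CPM with rebamipide. Cxcr2, a chemokine receptor of neutrophils, had a log2 value of -2.48 ± 0.89 (edgeR adjusted p = 0.0918), and Ptprc, the pan-leukocyte gene, -1.78 ± 0.68 (adjusted p = 0.108). Both overlapped between groups. The macrophage genes Lyz2 and Csf1r overlapped between groups (log2 -0.48 ± 0.55 and -0.63 ± 0.56). The summed level of the 10 genes was 339 to 753 CPM with vehicle and 202 to 721 CPM with rebamipide.

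Aqp9 minus the myeloid mean was 0.92, 0.88 and 0.88 with vehicle, a flat level, and 0.20, -0.41 and -3.87 with rebamipide on the log2 scale. Every rebamipide library lay below the vehicle level (difference -2.25, exact permutation p = 0.1). The mean was 0.89 with vehicle and -1.36 with rebamipide, or -0.11 with rebamipide without the third library. Set against the keratinocyte lists, which were chosen after its counts were seen, Aqp9 overlapped between groups. Aqp9 minus the basal mean was -5.02, -4.49 and -3.87 with vehicle and -4.06, -4.78 and -2.97 with rebamipide, a difference of 0.52, or 0.04 without the third rebamipide library. Against the suprabasal mean the difference was 1.55, or 0.09 without that library. Which cells carried Aqp9 was not tested. The genes most like Aqp9 were Ugt1a1, a glucuronosyltransferase gene, Faah, the fatty acid amide hydrolase gene, and Aadacl4fm5, with root mean square differences of 0.156 to 0.203 log2 units.

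Aqp4, the water channel of fast muscle fibres (ENSMUSG00000024411, chromosome 18, 15522553 to 15544039, minus strand, GRCm39), varied within both groups. It had 198, 1431 and 1744 counts with vehicle and 410, 157 and 8 counts with rebamipide, or 3.97, 29.1 and 37.3 and then 13.5, 6.12 and 0.305 normalized CPM. The first vehicle library lay inside the rebamipide range. The log2 fold change was -1.82 ± 1.28 SE (edgeR adjusted p = 0.319), and -1.25 without the third rebamipide library (adjusted p = 0.392) and -2.86 without the first (adjusted p = 0.203). None of the alternatives run called Aqp4, and their adjusted p ran from 0.0504 to 0.564.

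Fast muscle genes varied in the same libraries by more than they differed between groups. Of 10 fast skeletal muscle genes 9 passed the filter, and 0 of them rose or fell in edgeR, where 0 had an unadjusted p under 0.05, and DESeq2 called 0. Acta1, the skeletal actin, was at 1560, 7225 and 7094 CPM with vehicle and 10858, 2244 and 80.9 CPM with rebamipide. The summed level ran from 5651 to 27994 CPM with vehicle and from 289 to 35668 CPM with rebamipide. Aqp4 minus the fast muscle mean was -5.60, -4.56 and -4.52 with vehicle and -6.36, -5.34 and -5.17 with rebamipide on the log2 scale, and the groups overlapped (difference -0.73, exact permutation p = 0.3). This distance spanned 1.84 over the 6 libraries, and Aqp4 itself spanned 6.71. Without the third rebamipide library the difference between groups was -0.96. The list holds Tnnc2, which had 0 to 2 counts in each library. Without Tnnc2, a choice made after seeing the data, the difference over all 6 libraries was -0.54 (exact permutation p = 0.5), and the groups overlapped.

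Slow muscle genes went otherwise. Of 5 slow skeletal muscle genes 3 rose in edgeR and 4 in DESeq2. In edgeR 3 rose without the third rebamipide library and 2 without the first, and 0 rose without any 1 of the 3 vehicle libraries or without rebamipide replicate 2. Myh7, the slow myosin heavy chain, had 2, 6 and 4 counts with vehicle and 2120, 947 and 37 counts with rebamipide. Aqp4 minus the slow muscle mean was 2.94, 4.69 and 6.75 with vehicle and -1.64, -1.56 and -1.56 with rebamipide, lower in every rebamipide library (difference -6.38, exact permutation p = 0.1). The part of muscle content in the Aqp4 values was not tested. Of the 3 genes most like Aqp4, which were Slurp2, Chga and Serpina3i, none came nearer than 0.24 log2 units.

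Aqp4 is held at the sarcolemma by the dystrophin complex. Of 8 genes of that complex 1 rose and 1 fell at an adjusted p under 0.05 in edgeR, and 0 rose or fell without the third rebamipide library. Without vehicle replicate 1, 2 rose and 0 fell, and DESeq2 called 2 higher and 1 lower. Dmd, which encodes dystrophin, fell from 78.9, 52.9 and 39.5 CPM to 23.2, 17.5 and 14 CPM (log2 -1.64 ± 0.33, adjusted p = 0.0232). Dag1, which encodes dystroglycan, rose from 297, 335 and 337 CPM to 612, 685 and 646 CPM (log2 1.00 ± 0.20, adjusted p = 0.0238). With total counts alone 0 genes of the complex were called higher, and Dag1 was at 0.38 ± 0.19 (edgeR adjusted p = 0.148). Both genes are also expressed outside muscle. Sgcd, which encodes delta-sarcoglycan, did not pass the test (log2 1.67 ± 0.50, adjusted p = 0.0603).

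Aqp5, the water channel of sweat and other exocrine glands (ENSMUSG00000044217, chromosome 15, 99488663 to 99492710, plus strand, GRCm39), was near the limit of detection. It had 10, 42 and 28 counts with vehicle and 0, 2 and 0 counts with rebamipide. A count of 0 allows up to 3 counts, or 0.0752 to 0.0917 CPM before TMM scaling, and this limit covers counting error only. Summed over the libraries, 80 counts with vehicle and 2 with rebamipide gave a ratio of 22.5 after TMM scaling, with an exact 95% interval of 6.03 to 189 that covers counting error only. All rebamipide libraries lay below all vehicle libraries. Tested without the expression filter, edgeR gave a log2 fold change of -4.33 with an adjusted p of 0.0655, and this gene did not pass the filter with all 6 libraries. It passed the filter in 4 fits that left out a library. In the filtered edgeR fit without the third rebamipide library the log2 fold change was -3.79 with an adjusted p of 0.12. DESeq2 called it lower in 3 of the 4 fits, without vehicle replicate 1 (adjusted p = 0.0233), rebamipide replicate 1 (0.0284) and rebamipide replicate 2 (0.00153), but not without the third rebamipide library (0.0517).

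Of 9 sweat and secretory gland genes 5 passed the filter, of which 0 rose and 1 fell in edgeR (0 without the third rebamipide library or without vehicle replicate 1). DESeq2 called 3 lower, and 4 of the 9 genes were lower in every rebamipide library than in any vehicle library. The mean log2 CPM of the list differed by -1.31, with no overlap between groups, and by -1.24 without the third rebamipide library. Foxa1 and Foxi1, which mark sweat gland cells, had 0 counts in every library. The 1 that fell in edgeR was Krt8, a keratin of simple epithelia, with 191, 37 and 12 counts with vehicle and 2, 0 and 1 counts with rebamipide (log2 -5.36 ± 1.41, edgeR adjusted p = 0.044). Without rebamipide replicate 1 its adjusted p was 0.0704. The summed level of the 9 genes was 5.67 to 11.3 CPM with vehicle and 1.87 to 4.02 CPM with rebamipide. Aqp5 minus the mean of these genes overlapped between groups (difference -1.59, exact permutation p = 0.2). Without the third rebamipide library the difference was -1.44. With so few counts, and 0 of Foxa1 and Foxi1, the list does not show that the libraries held sweat gland cells. The gland content of the libraries was not tested.

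The other 5 genes of the family were not detected beyond a few counts. Mip, Aqp2, Aqp8 and Aqp12 had 0 to 5 counts in each library and Aqp6 had 0 counts in all 6. None passed the filter.

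Genes that set the ionic gradients or cell volume with which aquaporins work were described as a list of 8, of which 7 passed the filter and 0 rose or fell at an adjusted p under 0.05 in edgeR. There 2 genes had an unadjusted p under 0.05, among them Lrrc8a, the volume-regulated anion channel subunit, and DESeq2 called 1 gene higher and 0 lower. Without rebamipide replicate 1 edgeR called 1 gene higher and 1 lower. Lrrc8a was at 9.21, 8.45 and 10.7 CPM with vehicle and 12.5, 16.6 and 19.6 CPM with rebamipide (log2 0.78 ± 0.26, edgeR adjusted p = 0.0809). Its groups did not overlap. Slc12a2, the sodium, potassium and chloride cotransporter, overlapped (log2 -0.18 ± 0.45).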

How the data were processed

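Poly-A RNA of dorsal skin was sequenced for 6 mice (DNBSEQ-T7, per the paper's methods). The authors deposited, for each gene, whole-number read counts without normalization and FPKM, which equal the counts divided by gene length and library total. The submitters' processing notes name fastp 0.22.0, HISAT2 2.1.0, HTSeq 0.9.1 and GRCm39 without giving their roles. All 12 value columns were matched to samples by name. Replicates of a group differed by more than sampling noise.

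Counts were tested in R 4.3.3 with edgeR 4.0.16 (TMM, filterByExpr, quasi-likelihood test, Benjamini-Hochberg adjustment). Alternatives were DESeq2 1.42.0, limma-voom and limma 3.58.1 on log2(FPKM + 1), other scalings and filters, a replicate block and each library left out in turn (for named genes of lists, chosen after seeing the data). log2 CPM used a prior count of 2. Single values were compared with two-sided exact permutation tests. On simulated counts of this comparison, with 200 genes changed 4-fold among 14785 genes, edgeR recovered 93% with 14 false calls and DESeq2 93.5% with 32. The simulation gave every gene the same dispersion and both groups otherwise the same make-up, unlike these libraries. Its recovery therefore does not describe the power of the tests on the real counts.

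Members and lists were chosen with earlier results of these data known. Named besides the members were, for each, the 3 genes nearest in pattern, and from each list the 2 highest in CPM and at most 3 of lowest p. Adipoq, Lep, Elovl3, Gk, Mgll, Lpl, Vwf, Slc12a2, Hba-a1, Hbb-bs, Alas2, Foxa1 and Foxi1 were added after their values were seen. Of the genes this rule names, 2 are not reported here. Promoters are RefSeq windows on GRCm38.p6, and table positions, on GRCm39, were not mixed with them. The authors' annotation columns (GO, KEGG) were not used.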

Additional observations from a re-analysis of the deposited data

How the results depend on the processing

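Direction was the same in all alternatives for each of the 7 members, and the calls were not. Aqp1 kept its rise but lost the call with RLE scaling (log2 1.54, adjusted p = 0.0536), upper quartile scaling (1.46, 0.0641), total counts alone (0.93, 0.104), no filter (1.51, 0.0603) and limma on log2(FPKM + 1) (1.02, 0.0676). Aqp11 lost it with total counts alone (0.98, 0.0582). With each library left out in turn, in edgeR and DESeq2, log2 fold changes were 1.23 to 2.05 for Aqp1, -3.17 to -1.62 for Aqp3, -2.90 to -1.22 for Aqp4, -7.48 to -3.72 for Aqp5, 4.45 to 5.07 for Aqp7, -3.44 to -1.55 for Aqp9 and 1.37 to 1.82 for Aqp11. In edgeR 0 genes of 14964 passed without vehicle replicate 2 (4116 at an unadjusted p under 0.05, and in DESeq2 2097 higher and 1419 lower), and 1 without rebamipide replicate 2, which removes every call of a member and of a list in those fits. Limma on log2(FPKM + 1) called Aqp3 (-3.41) and Aqp9 (-1.67) lower, 2 members, and with total counts alone 1 member was called higher. With a library left out, 0 to 3 members were called higher and 0 to 2 lower. The cause of these shifts was not tested, beyond the smaller number of libraries.

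Total counts alone gave a median log2 fold change of -0.78 over all genes, against -0.17 with TMM, and moved the difference of mean log2 CPM to 1.03 for Aqp1 and 0.94 for Aqp11. It called 1258 genes higher and 3752 lower. Against the median of a list in place of its mean, Aqp1 differed by 0.29 and Aqp7 by 1.96, and against the second list Aqp1 differed by -0.99, Aqp3 by 0.36, Aqp4 by -6.38 and Aqp7 by -0.92. The Aqp7 value rests on Ucp1, at 0 counts in every vehicle library, and without it turns to 0.64. Against the keratinocyte lists, added after the data were seen, Aqp9 differed by 0.52 (basal) and 1.55 (suprabasal). With counts in place of FPKM the share of Aqp4 changed by -4.88 and that of Aqp9 by -3.24 percentage points. Replicate numbers did not pair the samples: deviations of same-numbered libraries correlated at -0.016, -0.038 and 0.003. With a replicate block Aqp11 had a log2 value of 1.58 (adjusted p = 0.0693), and 2 members were called higher, Aqp1 and Aqp7.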
